A study of Mus musculus with 16 samples.

Results

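The 9 genes of mouse liver described here are known to depend on growth hormone, and they were followed across high-fat diet, chow and a liver-specific loss of the microRNA miR-33. They are the major urinary protein genes Mup3, Mup12, Mup14, Mup15, Mup20 and Mup21, the steroid enzyme gene Hsd3b5, the fatty acid elongase gene Elovl3 and the selenium-binding protein gene Selenbp2. Members were taken by gene name, so that 9 of the 23258 rows of the deposited gene table belong here, and all 9 were among the 16830 genes expressed highly enough to be tested. They were chosen by name with earlier results in view, selected on their measured levels across diets and in 1 outlying library. Their diet differences are therefore given as a description, with no test. The comparison of genotypes on high-fat diet holds the same outlying library, so it is not independent of the choice either.

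Growth hormone reaches the rodent liver in pulses in males and more evenly in females, and it acts through its receptor, the kinase Jak2 and the transcription factors Stat5a and Stat5b. Pulses switch on a male set of liver genes, to which the urinary protein genes and Hsd3b5 belong, and hold down a female set of cytochrome P450, sulfotransferase and transporter genes. Major urinary proteins are small lipocalins that the liver secretes, the kidney passes into urine and mice use as scent marks and pheromone carriers. Obesity on a high-fat diet is known to change the release of growth hormone in mice.

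Liver RNA was sequenced from C57BL/6 mice in 4 groups. Libraries of knockout liver numbered 5 on high-fat diet and those of wild-type liver 4, while on chow there were 4 of knockout and 3 of wild type. The sample titles fall in separate ranges of numbers for high-fat diet and for chow, and what the numbers stand for is not stated. A diet difference therefore cannot be told apart from any other difference between these sets of samples. The knockout removes miR-33 in the liver only, and the name of the deposited table speaks of Alb-Cre, a recombinase driven by the albumin promoter, which is active in hepatocytes. The sources used here do not state whether the wild-type mice carry floxed alleles or the recombinase, nor do they give sex, age, the length of feeding or the hour at which livers were taken. The microRNA itself is not analysed here.

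Library totals ran between 20993959 and 29469671 estimated counts in knockout livers on high-fat diet, 16149906 and 25823442 in wild-type livers on high-fat diet, 15888521 and 26821579 in knockout on chow, and 17502973 and 22902666 in wild type on chow. Levels are given in CPM, the usual unit of counts relative to the scaled library total. Nothing in the sources used here says how many mice stand behind each library, so p-values measure the spread between these samples. All 16 libraries carried RNA of 4 Y-linked genes, with sums between 94.5 and 143.6 CPM, and no more than 0.707 CPM of Xist, the RNA of the inactive X chromosome. Hepatocyte markers were abundant throughout, with a summed level of 15 markers of at least 86298.8 CPM in every library. Where a level differs between groups in whole tissue, fewer cells of a type and less RNA per cell cannot be told apart.

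The library called high-fat knockout 1 stood apart from its group for these genes. It had the highest level among the 5 knockout livers on high-fat diet for 9 of 9 members, whereas it was the highest for 26.5% and the lowest for 25.9% of all genes tested. The members were chosen with this library's levels known, so these counts describe the choice and support nothing. Its level was 340-fold over the median of the other 4 libraries for Hsd3b5, 62.6-fold for Mup14 and 2.31-fold for Mup3. Among wild-type livers on chow, replicate 2 was the highest of 3 for 9 of 9 members, with 4.04 times the mean of the other pair for Hsd3b5 and 1.30 times for Elovl3. The members' fitted values, and the diet counts of the other Mup, sex-biased and growth hormone axis genes in knockout, are given with and without high-fat knockout 1. The 4 groups share 1 estimate of each gene's spread, so high-fat knockout 1 also enters the SEs and p-values of the other comparisons.

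The 6 Mup members lie on the minus strand of chromosome 4, from 60737383 to 62150864 in the mm10 build, a stretch of 1413 kb. Mup12 (60737383 to 60741327), Mup14 (61300023 to 61304001) and Mup15 (61435790 to 61439744) belong to the near-identical central copies of this cluster. Their annotated transcripts were 99.0% to 99.2% identical, and of all 75-base windows only 19.7% in Mup12, 5.4% in Mup14 and 0.0% in Mup15 occurred in no other gene. Reads of 75 bases therefore could rarely be placed on 1 of these copies alone, so the split of counts among them is uncertain. Mup20 (62050234 to 62054159), Mup3 (62083476 to 62087343) and Mup21 (62147932 to 62150864) lie at one end of the cluster and were more distinct, with 56.4%, 93.2% and 89.7% of windows found in no other gene. Hsd3b5 (chromosome 3, 98618634 to 98630253, minus strand) had 88.3% such windows and Elovl3 (chromosome 19, 46131897 to 46135308, plus strand) 100%. Selenbp2 lies on chromosome 3 (94693556 to 94704414, plus strand). Its transcript was 98.5% identical to that of Selenbp1 over the aligned bases, which left 65.4% of its windows to itself. The labels also speak of 45 cycles. At 45 bases the shares were 12.8% in Mup12, 1.8% in Mup14, 0.0% in Mup15 and 47.1% in Mup20. They were 81.6% in Mup3, 78.2% in Mup21, 76.2% in Hsd3b5, 100% in Elovl3 and 44.5% in Selenbp2.

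Promoters of 6 of the 9 members were in the RefSeq table for build GRCm38.p6. Those of Mup3, Mup14, Mup15 and Mup21 are shown because they are neighbours of one family, and they share a short motif, ATCAAT, a core bound by the liver factor Onecut1. The motif was picked out after the matches were seen. Each window of 300 bases, from 250 before the start site to 50 after it, was searched on both strands, and the 250 bases before the start are printed with ATCAAT in capitals.
Mup3, chr4:62087318-62087567, minus strand: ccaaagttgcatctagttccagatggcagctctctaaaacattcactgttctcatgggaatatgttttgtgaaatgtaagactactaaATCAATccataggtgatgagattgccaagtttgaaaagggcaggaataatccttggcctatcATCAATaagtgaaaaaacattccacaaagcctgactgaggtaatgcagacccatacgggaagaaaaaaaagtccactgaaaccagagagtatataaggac
Mup21, chr4:62150842-62151091, minus strand: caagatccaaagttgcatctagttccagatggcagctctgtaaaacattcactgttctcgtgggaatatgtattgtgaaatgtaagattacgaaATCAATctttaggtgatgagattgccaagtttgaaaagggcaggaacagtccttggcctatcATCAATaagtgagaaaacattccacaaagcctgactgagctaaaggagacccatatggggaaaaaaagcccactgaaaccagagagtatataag
Mup14, chr4:61303999-61304248, minus strand: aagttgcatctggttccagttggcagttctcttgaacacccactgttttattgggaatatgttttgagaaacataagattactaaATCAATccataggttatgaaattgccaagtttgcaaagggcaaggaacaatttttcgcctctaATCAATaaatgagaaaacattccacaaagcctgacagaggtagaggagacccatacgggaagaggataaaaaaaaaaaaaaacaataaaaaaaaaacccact
Mup15, chr4:61439705-61439954, minus strand: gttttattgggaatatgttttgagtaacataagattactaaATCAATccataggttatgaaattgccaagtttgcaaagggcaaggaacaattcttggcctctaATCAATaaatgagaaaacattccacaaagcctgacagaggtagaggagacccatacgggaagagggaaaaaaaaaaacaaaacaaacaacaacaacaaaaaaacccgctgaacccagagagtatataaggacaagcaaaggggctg
The motif stood in 2 places in each of these 4 windows, in the printed direction, and in 7.8% of 27025 mouse promoters of the same length. In Mup3 the matches began 162 and 100 bases before the start, and in Mup14 165 and 102 bases before it. The Stat5 pattern TTCNNNGAA was found in none of the 4 windows and in 8.5% of all promoters. Aligned end to end with gaps counted, the Mup3 and Mup21 windows were 90.2% identical over 306 columns. Those of Mup14 and Mup15 were 72.1% identical over 344 columns. The Mup14 and Mup15 windows are offset from each other, since in Mup15 the matches began 209 and 146 bases before the start. Their lower value therefore counts this offset and does not measure how far the promoters have diverged. The windows of the other 2 members with a RefSeq promoter, Hsd3b5 and Selenbp2, held no ATCAAT and no TTCNNNGAA. The RefSeq start of Hsd3b5 lies 15281 bases from the start in the deposited table, so its window may not be the promoter used here. A match is a run of letters and not a measured binding site.

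Hsd3b5, a hydroxysteroid dehydrogenase family member that acts as a ketosteroid reductase and marks male mouse liver, had the widest range of the members. It stood at 74.0, 0.204, 0.516, 0.0349 and 0.231 CPM in knockout livers on high-fat diet and at 40.9, 37.2, 7.93 and 16.7 CPM in knockout livers on chow. Wild-type livers held Hsd3b5 at 0.306, 0.0348, 0.0842 and 0.0531 CPM on high-fat diet and at 21.9, 86.0 and 20.6 CPM on chow. All 4 wild-type livers on high-fat diet lay far below all 3 on chow, and so did 4 of the 5 knockout livers, while high-fat knockout 1 lay within the range of the 7 chow livers. The wild-type livers on high-fat diet held 12 estimated counts of Hsd3b5 in all, against 2289.7 in wild type on chow. The fitted log2 fold change of high-fat diet over chow in knockout was -0.83 ± 1.38 (SE) with high-fat knockout 1 and -6.62 without it. In wild type it was -8.38 ± 2.59.

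Mup14, Mup15 and Mup12, which encode near-identical excreted urinary proteins, followed the same pattern. Mup14 stood at 1324.9, 13.2, 72.9, 5.37 and 29.1 CPM in knockout livers on high-fat diet and at 759.3, 277.2, 839.1 and 536.9 CPM in knockout on chow. In wild type Mup14 stood at 30.8, 18.3, 30.2 and 17.6 CPM on high-fat diet and at 602.6, 1269.4 and 377.9 CPM on chow. High-fat knockout 1 exceeded every chow liver for Mup14, and the other 8 livers on high-fat diet lay below every chow liver. Fitted log2 fold changes of high-fat diet over chow were -1.06 ± 1.23 in knockout, -4.30 in knockout without high-fat knockout 1, and -4.95 ± 1.58 in wild type.

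Mup15 stood at 576.3, 14.6, 40.0, 2.55 and 27.6 CPM in knockout livers on high-fat diet, against 299.8, 90.5, 344.7 and 220.5 CPM in knockout on chow. Wild-type livers held Mup15 at 30.2, 4.76, 14.0 and 8.98 CPM on high-fat diet and at 167.2, 686.7 and 138.4 CPM on chow. Chow wild type 2 was the highest of all 16 libraries and high-fat knockout 1 the second highest. The fitted log2 fold change with diet was -0.86 ± 1.19 in knockout, -3.47 in knockout without high-fat knockout 1, and -4.51 ± 1.5 in wild type.

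Mup12, the least abundant of these copies per kilobase of exon, stood at 114, 4.49, 12.4, 0.244 and 1.19 CPM in knockout livers on high-fat diet, against 87.0, 66.7, 165.7 and 54.6 CPM in knockout on chow. Wild-type livers held Mup12 at 10.2, 0.939, 2.86 and 2.07 CPM on high-fat diet and at 73.6, 183.9 and 51.3 CPM on chow. Again only high-fat knockout 1 among the livers on high-fat diet reached the chow range. The fitted log2 fold change with diet was -1.84 ± 1.18 in knockout, -4.30 in knockout without high-fat knockout 1, and -4.66 ± 1.52 in wild type.

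Mup3 and Mup21, from the more distinct end of the cluster, had smaller fitted diet differences. Mup3 stood at 3477.1, 1618.9, 1565.3, 910.3 and 1449.1 CPM in knockout livers on high-fat diet and at 2738.6, 3301.4, 3502.9 and 2777.7 CPM in knockout on chow. In wild type Mup3 stood at 2013.9, 977.0, 1592.3 and 1350.5 CPM on high-fat diet and at 2704.8, 3664.1 and 3121.6 CPM on chow. The wild-type groups did not overlap, and the knockout groups overlapped through high-fat knockout 1 alone. For Mup3 the fitted log2 diet difference was -0.77 ± 0.31 in knockout, -1.13 without high-fat knockout 1, and -1.09 ± 0.35 in wild type.

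Mup21 stood at 149, 34.3, 49.6, 13.9 and 29.1 CPM in knockout livers on high-fat diet, against 61.0, 69.8, 78.1 and 74.0 CPM in knockout on chow. Wild-type livers held Mup21 at 56.4, 21.8, 48.8 and 20.0 CPM on high-fat diet and at 63.6, 103 and 55.6 CPM on chow. The wild-type groups overlapped narrowly, at 56.4 CPM on high-fat diet and 55.6 CPM on chow. For Mup21 the fitted log2 diet difference was -0.36 ± 0.57 in knockout, -1.13 without high-fat knockout 1, and -1.01 ± 0.65 in wild type.

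Mup20 encodes darcin, the male pheromone of mouse urine, and ran the other way. It stood at 11083, 2801.6, 6426.9, 5468.9 and 5597.4 CPM in knockout livers on high-fat diet, against 2290.0, 2075.4, 2776.7 and 2659.5 CPM in knockout on chow. Wild-type livers held Mup20 at 3400.4, 5419.7, 6456.2 and 5038.7 CPM on high-fat diet and at 2497.0, 4266.5 and 2840.7 CPM on chow. Every knockout liver on high-fat diet lay above every knockout liver on chow, by a narrow margin for replicate 2, and the wild-type groups overlapped. For Mup20 the fitted log2 diet difference was 1.36 ± 0.32 in knockout, 1.07 without high-fat knockout 1, and 0.67 ± 0.36 in wild type.

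Elovl3, an elongase of very long saturated and monounsaturated fatty acids, did not overlap between the diets in either genotype. It stood at 42.0, 27.3, 23.3, 11.6 and 17.8 CPM in knockout livers on high-fat diet, against 236.3, 277.4, 188.6 and 193.6 CPM in knockout on chow. Wild-type livers held Elovl3 at 41.8, 9.56, 27.5 and 14.9 CPM on high-fat diet and at 179.5, 237.4 and 185.7 CPM on chow. High-fat knockout 1 was the highest of its group for Elovl3 but stayed far under every chow liver. The fitted log2 fold change of Elovl3 with diet was -3.20 ± 0.42 in knockout, -3.47 without high-fat knockout 1, and -3.10 ± 0.47 in wild type.

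Selenbp2, which encodes a cytosolic selenium-binding protein of the liver, stood out in single libraries of 2 groups. It stood at 216.7, 9.63, 40.6, 11.1 and 20.2 CPM in knockout livers on high-fat diet, against 3.86, 4.48, 10.4 and 5.26 CPM in knockout on chow. Wild-type livers held Selenbp2 at 8.48, 28.9, 23.4 and 15.1 CPM on high-fat diet and at 6.96, 56.1 and 5.27 CPM on chow. Replicate 2 of wild type on chow was above all 4 wild-type livers on high-fat diet, while the other pair on chow lay below all 4. The fitted log2 fold change of Selenbp2 with diet was 3.34 ± 1.12 in knockout and 1.82 without high-fat knockout 1. In wild type it was -0.25 ± 1.11, and 1.63 without chow wild type 2.

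**Figure D1:**
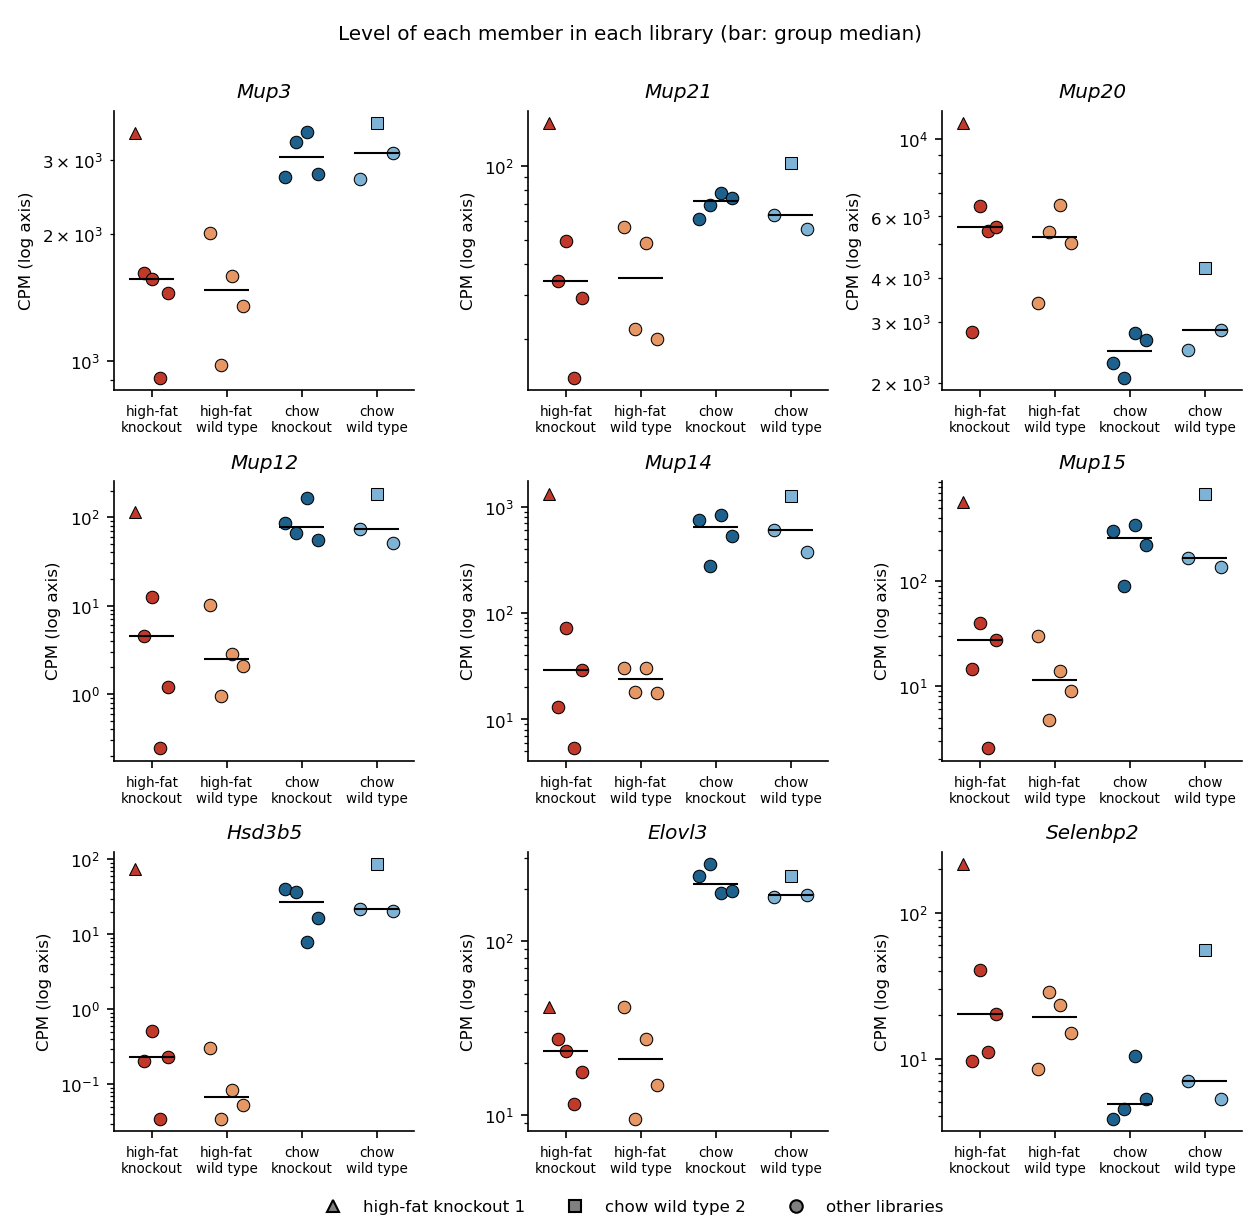
Each panel shows 1 member's level in CPM on a log axis, with 1 point per library, for high-fat knockout, high-fat wild type, chow knockout and chow wild type, and bars at group medians. The triangle is high-fat knockout 1, which lies within or above the range of the chow livers for every member but Elovl3, and the square is chow wild type 2.

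Counted over the members, 1 was higher (Mup20) and 1 lower (Elovl3) in knockout livers on high-fat diet than on chow without overlap of the groups, and 7 overlapped. Of all genes tested, 13.5% were higher and 13.0% lower without overlap in that comparison. Without high-fat knockout 1 the members counted 1 higher, 7 lower and 1 overlapping (Selenbp2), beside 16.5% and 16.4% of all genes. In wild type 0 members were higher and 6 lower (Mup3, Mup12, Mup14, Mup15, Hsd3b5 and Elovl3) without overlap, beside 18.3% and 17.7% of all genes. The median log2 fold change of the members was -0.83 in knockout and -3.10 in wild type, against -0.01 and -0.02 over all genes tested. Because diet differences of these libraries were known when the members were named, nothing is read from these counts.

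**Figure D2:**
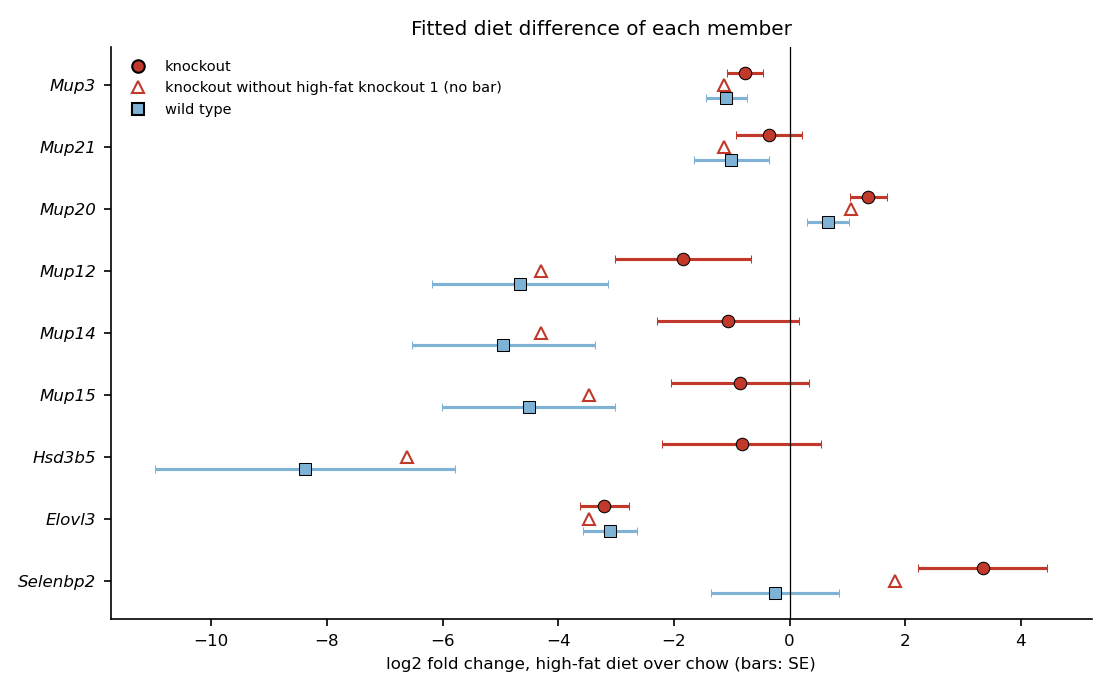
Fitted log2 fold change of high-fat diet over chow for each member, with bars of 1 SE, in knockout (circles) and wild type (squares), and in knockout without high-fat knockout 1 (open triangles, no bar). Without that library the knockout value of Hsd3b5 was -6.62, and that of Mup14 was -4.30.

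Per kilobase of annotated exon, Mup20 and Mup3 were the most abundant members in every group. In wild type on high-fat diet the median level per kilobase was 5634.9 CPM for Mup20 and 1377.7 CPM for Mup3, followed by 52.1 CPM for Mup21. On chow the wild-type medians were 3061.1 CPM per kilobase for Mup20, 2922.9 for Mup3 and 436.0 for Mup14, and the ranges of Mup20 and Mup3 overlapped. Hsd3b5 was the lowest of the 9 members on high-fat diet, with a median of 0.0443 CPM per kilobase in wild type, and Selenbp2 the lowest on chow, with 3.07 CPM per kilobase. Among the 3 central copies the order per kilobase rests on how reads were divided.

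The make-up of the Mup family differed with diet. Mup20 made up 42.8% to 83.9% of the counts of the 19 Mup genes in knockout livers on high-fat diet (56.5% to 83.9% without high-fat knockout 1), against 18.5% to 26% in knockout livers on chow. In wild type its share was 53.7% to 80.4% on high-fat diet and 21.1% to 28% on chow, and neither pair of ranges overlapped. By 75-base windows, 15 Mup genes had less than 50% of windows to themselves. With 45-base windows Mup20, at 47.1%, would also fall under that limit, so its share is less certain if reads were that short. Summed over the 15 genes, the level does not depend on how reads were divided among them. It was 11202.5 CPM in high-fat knockout 1 and 121.6 to 901.2 CPM in the other 4 knockout livers on high-fat diet. That sum was 4169.0 to 8679.1 CPM in knockout on chow. In wild type it was 318.6 to 866.5 CPM on high-fat diet and 4144.7 to 12174.7 CPM on chow. All Mup genes together took 2.59% of counts in high-fat knockout 1, 0.496% to 0.894% in the other 4 knockout livers on high-fat diet, 0.634% to 0.868% in wild-type livers on high-fat diet, 0.962% to 1.5% in knockout on chow and 1.02% to 2.02% in wild type on chow. Apart from high-fat knockout 1, every knockout liver on high-fat diet thus lay below every knockout liver on chow.

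**Figure D3:**
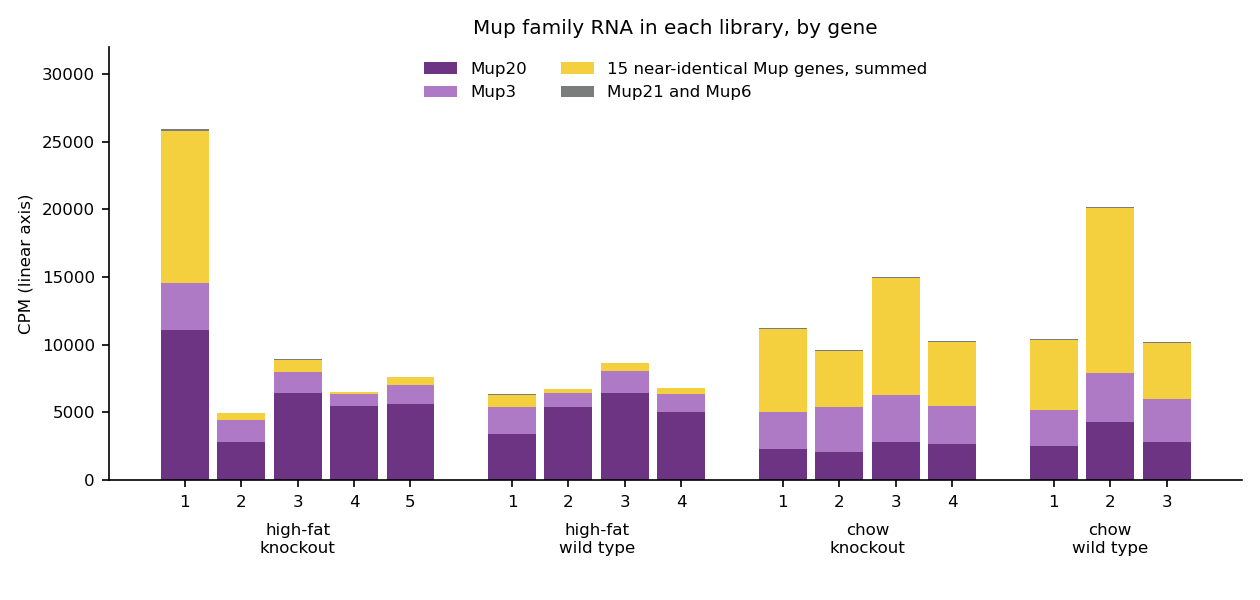
Stacked bars give the CPM of Mup20, of Mup3, of 15 near-identical Mup genes summed, and of Mup21 with Mup6, in each of the 16 libraries on a linear axis from 0. Apart from high-fat knockout 1, the summed near-identical genes are at most 901.2 CPM on high-fat diet and at least 4144.7 CPM on chow.

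The other 13 Mup genes in the table were set against diet with edgeR's quasi-likelihood test and Benjamini-Hochberg adjustment over all genes. They were not members, but most of them share near-identical sequence with Mup12, Mup14 and Mup15, so they are no independent observation. In knockout none of the 13 passed an adjusted p of 0.05, none had an unadjusted p under 0.05 and their median log2 fold change was -1.09, beside 33.6% of all genes called and 43.7% at an unadjusted p under 0.05. DESeq2 called 0 and limma-voom 8, and edgeR called 11 without high-fat knockout 1. In wild type 4 fell (Mup2, Mup6, Mup11 and Mup19), 0 rose and the median was -2.59, beside 29.4% of all genes called in that comparison. Mup6 was near the floor, at no more than 1.05 CPM in any wild-type liver. Another 7 of the 13 were below an unadjusted p of 0.05 alone, which makes 11, beside 40.1% of all genes. Leaving out chow wild type 2 made the count of passing genes 0, and leaving out high-fat knockout 1 made it 11. High-fat knockout 1 is in neither wild-type group, but it enters the estimate of the spread that the 4 groups share. Mup7 had the lowest log2 fold change of the 13, at -6.70 ± 2.42 with an adjusted p of 0.0554. It stood at 63.2, 2.33, 11.5 and 2.55 CPM in wild-type livers on high-fat diet and at 1313.8, 4063.9 and 840.8 CPM in wild type on chow. Mup18 had the highest, at 1.23 ± 0.49 with an adjusted p of 0.0802.

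Loss of miR-33 was compared with wild type on each diet. The comparison on high-fat diet, and with it the difference between diets, rests on a library whose levels were known when the members were chosen, so its p-values are not an independent test. On high-fat diet 0 of the 9 members passed in knockout against wild type, where 1 of the 16830 genes tested (0.00594%) passed by edgeR. At an unadjusted p under 0.05 there were 3 members (Hsd3b5, Mup14 and Mup15), beside 3.81% of all genes. limma-voom called 0 and DESeq2 called 1 member, Hsd3b5, with an adjusted p of 0.0162, and over all alternatives the adjusted p of the members ran between 0.0162 and 1. All 9 fitted values were above 0 in knockout, with a median log2 fold change of 1.64, and the groups overlapped for all 9, while 0.594% of all genes were higher and 0.642% lower without overlap.

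The largest knockout difference on high-fat diet was that of Hsd3b5, with a log2 fold change of 6.82 ± 2.59 (SE) and an adjusted p of 1 by edgeR. Without high-fat knockout 1 it was 1.02. Mup14 had 3.57 ± 1.42, and 0.32 without that library. Mup15 had 3.18 ± 1.36, and 0.55 without it. Mup12 had 2.67 ± 1.38, and 0.19 without it. Selenbp2 had 1.64 ± 1.00, and 0.10 without it. Elovl3 had 0.05 ± 0.41, and -0.23 without it. Without high-fat knockout 1, 4 of the 9 fitted values were at or below 0, those of Mup3, Mup20, Mup21 and Elovl3. As differences of mean log2 CPM without that library, Mup12 (-0.37) and Mup14 (-0.24) were below 0 too, so their sign depends on the measure. Of 10 endothelial markers, 0 passed and 7 had an unadjusted p under 0.05 by edgeR between the genotypes on that diet, beside 3.81% of all genes. Their median log2 fold change was -0.35 in knockout. On chow the direction was the opposite, with 10 of 10 fitted values above 0 in knockout and a median of 0.29. There 0 endothelial markers passed and 5 had an unadjusted p under 0.05, beside 5.95% of all genes. The reversal was not particular to endothelial markers. Macrophage markers had 2 of 12 fitted values above 0 on high-fat diet and 12 of 12 on chow, with medians of -0.13 and 0.57. Stellate markers had 1 of 10 and 10 of 10, with medians of -0.26 and 0.21. Hepatocyte markers had 8 of 15 above 0 on both diets. The part of these cell markers in the members' differences was not tested.

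On chow, too, 0 of 9 members passed in knockout against wild type by edgeR, beside 0.00594% of all genes, and 0 had an unadjusted p under 0.05, beside 5.95%. DESeq2 and limma-voom also called 0, and the adjusted p over the alternatives ran between 0.615 and 1. The groups overlapped for all 9, whereas 3.07% of all genes were higher and 2.55% lower without overlap. The largest difference was that of Selenbp2, at -1.95 ± 1.19 on the log2 scale, followed by Hsd3b5 at -0.73. Chow wild type 2 carried that of Selenbp2, which was -0.07 without it. Without chow wild type 2 the value of Hsd3b5 was 0.28 and that of Mup15 was 0.64.

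The difference between the knockout effects on high-fat diet and on chow was tested as an interaction. By edgeR 0 of 9 members passed, where 0% of all genes passed, and 2 (Hsd3b5 and Selenbp2) had an unadjusted p under 0.05, beside 6.60%. DESeq2 and limma-voom called 0. Hsd3b5 had a difference of 7.55 ± 3.12 on the log2 scale and Selenbp2 one of 3.59 ± 1.55. Without high-fat knockout 1 these were 1.75 and 2.06, and without chow wild type 2 that of Selenbp2 was 1.71. A p that misses the threshold does not show that the genotypes are alike, and SEs of more than 1 on the log2 scale leave wide intervals for the central Mup genes, Hsd3b5 and Selenbp2.

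Among other genes known as higher in male mouse liver, 17 were listed, 16 were in the table and 16 were tested. In knockout 4 fell (Cspg5, Susd4, Cyp2d9 and Cyp4a12b) and 1 rose (Nudt7) on high-fat diet against chow by edgeR, beside 16.2% of all genes that fell and 17.4% that rose, and without high-fat knockout 1 the count was 9 lower and 0 higher. In wild type 8 fell and 0 rose, beside 14.2% and 15.2% of all genes, and 5 fell without chow wild type 2. The chondroitin sulfate proteoglycan gene Cspg5 had log2 fold changes of -3.19 ± 0.48 in knockout (adjusted p 7.5e-05) and -3.21 ± 0.56 in wild type (adjusted p 3.5e-04). The complement regulator gene Susd4 had -1.94 ± 0.48 in knockout (adjusted p 0.00722) and -2.61 ± 0.56 in wild type (adjusted p 0.00369).

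High-fat knockout 1 was the highest of the 5 knockout livers on high-fat diet for 14 of the 16 male-biased genes, again beside 26.5% of all genes. This list, too, was written with earlier results of these libraries known. Susd4 was at 20.3 CPM there and at 2.79 to 7.71 CPM in the other 4. Summed over the male-biased list, that library held 3660.1 CPM, against 1304.6 to 1796.3 CPM in the other 4 knockout livers on high-fat diet. The sums were 1321.6 to 1721.3 CPM in wild-type livers on high-fat diet, 2578.0 to 3427.7 CPM in knockout on chow and 2746.4 to 3799.5 CPM in wild type on chow. Cspg5, however, stood at 0.281 CPM in high-fat knockout 1, below the 0.496 to 2.77 CPM of knockout livers on chow, as Elovl3 did.

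Genes known as higher in female liver were followed as well. Of 30 listed, 26 were in the table and 22 were tested, of which 8 rose and 1 fell on high-fat diet against chow in knockout and 8 rose and 2 fell in wild type by edgeR. Of all genes 17.4% rose and 16.2% fell in knockout, and 15.2% rose and 14.2% fell in wild type. Without high-fat knockout 1 the knockout count was again 8 and 1. Their median log2 fold change was 0.60 in knockout and 0.67 in wild type. Cyp2b13, a female-biased cytochrome P450, stood at 17.3, 60.7, 33.6, 44.3 and 21.1 CPM in knockout livers on high-fat diet and at no more than 0.215 CPM in any knockout liver on chow. In wild type it stood at 31.5, 26.8, 32.3 and 28.7 CPM on high-fat diet and at no more than 0.296 CPM on chow, with a log2 fold change of 8.03 ± 0.70 and an adjusted p of 3.5e-06 by edgeR. Ntrk2, the receptor gene of brain-derived neurotrophic factor, rose by 3.01 ± 0.27 in knockout and 2.55 ± 0.29 in wild type on the log2 scale. The female-biased genes that fell were Cux2, a female-specific repressor of male genes, in both genotypes, and the plasma glycoprotein gene A1bg in wild type (-3.64 ± 0.74, adjusted p 0.00135). Both were near the floor, with Cux2 at no more than 1.24 CPM and A1bg at no more than 1.16 CPM in any library.

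High-fat knockout 1 was the lowest of the 5 knockout livers on high-fat diet for 18 of the 22 female-biased genes, beside 25.9% of all genes. The list summed to 210.7 CPM there and to 521.3 to 611.1 CPM in the other 4. In wild type on high-fat diet the sum was 492.6 to 521.6 CPM, in knockout on chow 147.5 to 196.4 CPM and in wild type on chow 135.1 to 180.3 CPM. No tested gene of the female-biased or the male-biased list passed in knockout against wild type on either diet by edgeR. At an unadjusted p under 0.05 there were 3 male-biased and 0 female-biased genes on high-fat diet, beside 3.81% of all genes. On chow there were 0 genes of either list, beside 5.95% of all genes. The comparison on high-fat diet holds high-fat knockout 1, the highest of its group for 14 of the 16 male-biased genes.

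**Figure D4:**
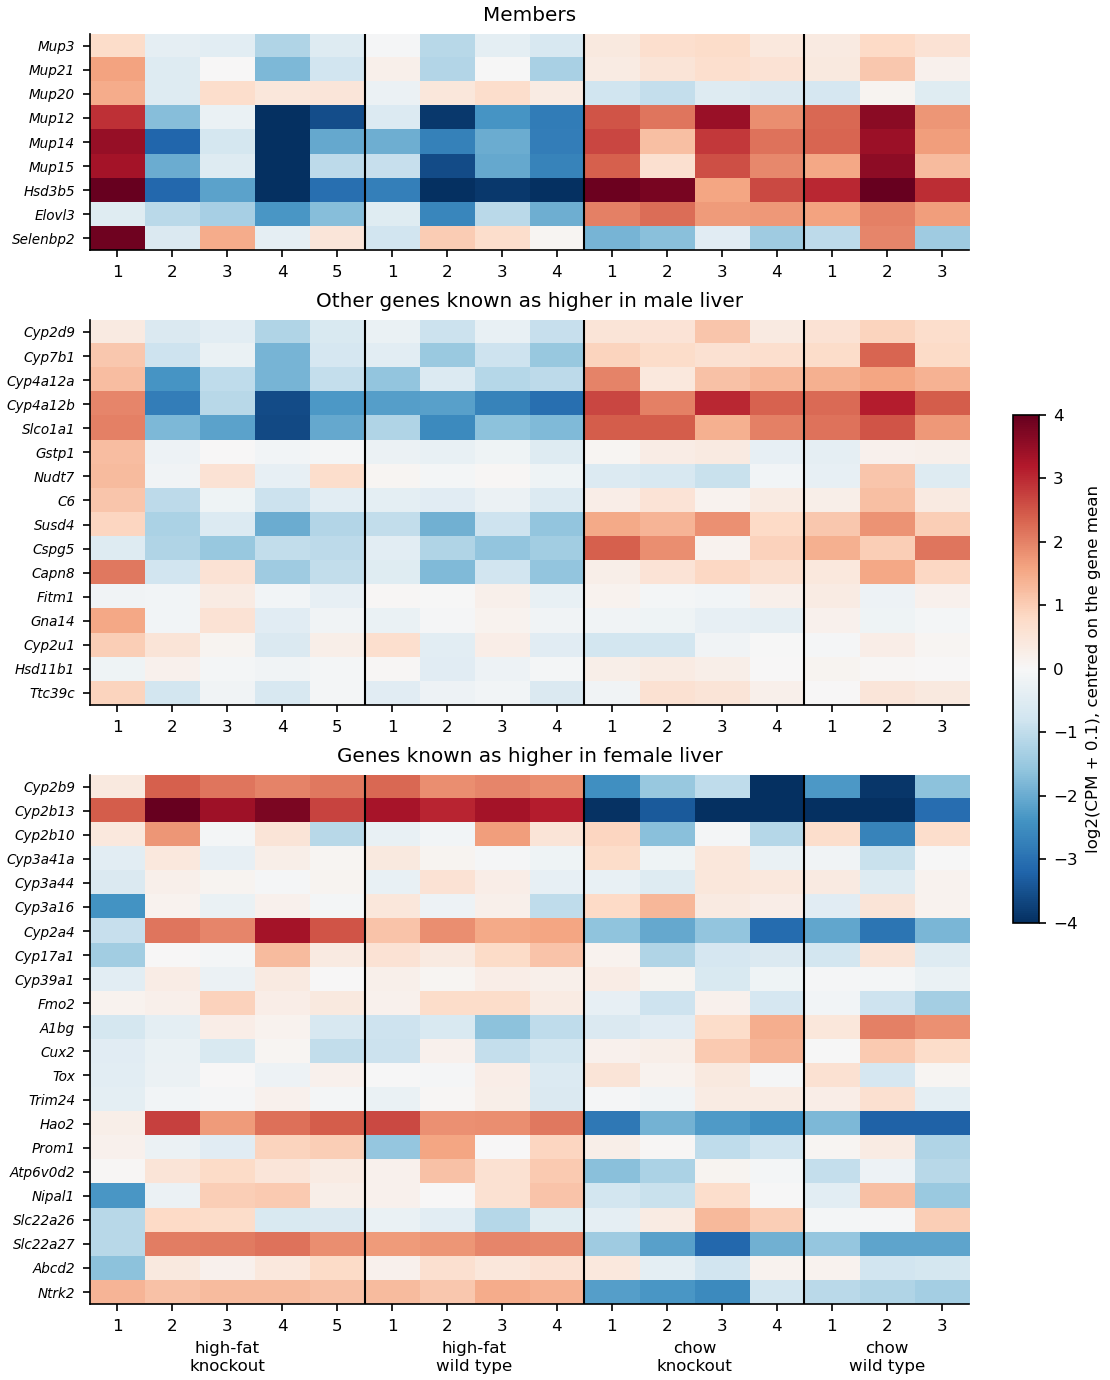
Each row is a gene and each column 1 of the 16 libraries, in the order high-fat knockout, high-fat wild type, chow knockout and chow wild type, and colour gives log2(CPM + 0.1) centred on the gene's mean (red high, blue low). High-fat knockout 1 has the highest level of its group in 9 of 9 members and 14 of 16 male-biased genes and the lowest in 18 of 22 female-biased genes.

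Genes that carry and answer the growth hormone signal were followed too. Of 15 genes of the axis, 3 rose (Ghr, Stat5a and Igfbp3) and 4 fell, among them Hnf4a and Igfals, in knockout, beside 17.4% and 16.2% of all genes, and 2 rose and 4 fell without high-fat knockout 1. There were 2 that rose (Stat5a and Igfbp3) and 4 that fell, again with Hnf4a and Igfals among them, in wild-type livers on high-fat diet against chow by edgeR, beside 15.2% and 14.2% of all genes. Nothing about the axis as a whole is read from counts of this size. The receptor gene Ghr had log2 fold changes of 0.25 ± 0.09 in knockout (adjusted p 0.0474) and -0.05 ± 0.11 in wild type. Stat5a, a signal transducer, rose by 0.59 ± 0.16 in knockout and 0.60 ± 0.19 in wild type. Stat5b, the main transducer of the pulses in liver, had 0.17 ± 0.09 in knockout (adjusted p 0.18) and 0.06 ± 0.11 in wild type.

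The secreted growth factor gene Igf1 had a log2 fold change with diet of -0.06 ± 0.12 in knockout. It fell by 0.44 ± 0.14 in wild type (adjusted p 0.0255 by edgeR). That fall leans on chow wild type 2, at 848.1 CPM of Igf1. The other pair on chow averaged 581.2 CPM, and wild-type livers on high-fat diet averaged 494.0 CPM. Igfals, which stabilises Igf1 in blood, fell by 0.53 ± 0.14 in knockout and by 0.88 ± 0.16 in wild type, while Igfbp3, another carrier of Igf1, rose by 0.48 ± 0.17 in knockout and 0.85 ± 0.20 in wild type. Hnf4a, a hepatocyte transcription factor needed for male liver gene expression, averaged 293.0 CPM in knockout livers on high-fat diet and 577.9 CPM in knockout on chow, with a log2 fold change of -0.98 ± 0.09 (adjusted p 8.1e-07). In wild type Hnf4a had -0.88 ± 0.11 (adjusted p 1.2e-05). High-fat knockout 1 was at 320.7 CPM of Hnf4a, within the 254.0 to 328.9 CPM of all livers on high-fat diet.

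Other genes of the axis varied between single livers, and those that follow were picked after their values were seen. Cish, a feedback inhibitor of the signal, stood at 22.3, 12.7, 3.76, 12.5 and 2.38 CPM in knockout livers on high-fat diet and at 14.7, 9.95, 2.02 and 11.4 CPM in wild-type livers on high-fat diet. Bcl6, a transcriptional repressor that growth hormone holds down, stood at 33.7, 21.0, 71.1, 23.8 and 75.4 CPM in knockout on high-fat diet and at 6.33 to 16.4 CPM in knockout on chow. In wild type Bcl6 stood at 8.80 to 63.4 CPM on high-fat diet and at 9.08, 102.0 and 7.28 CPM on chow, so that chow wild type 2, the highest of its group for all members, was also far above the other pair for Bcl6. Onecut1, whose core motif stands in the printed promoters, was at 90.8 CPM in high-fat knockout 1 and at 9.75 to 25.8 CPM in the other 4 knockout livers on high-fat diet. It ranged between 9.26 and 50.4 CPM in wild-type livers on high-fat diet and between 10.3 and 76.5 CPM in knockout on chow. In wild type on chow Onecut1 was lowest in chow wild type 2, at 10.7 CPM, against 34.4 and 30.3 CPM in the other pair. The part of Onecut1 in the members' levels was not tested. In knockout against wild type 0 of 15 genes of the axis passed on either diet by edgeR. At an unadjusted p under 0.05 there were 0 on high-fat diet and 1 on chow, beside 3.81% and 5.95% of all genes.

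Relatives of Hsd3b5, Elovl3 and Selenbp2 were also followed. Of 9 tested relatives, 6 rose and 2 fell (Elovl2 and Hsd3b7) in knockout and 3 rose (Elovl6, Elovl7 and Selenbp1) and 1 fell (Hsd3b7) in wild-type livers on high-fat diet against chow, beside 33.6% and 29.4% of all genes called in knockout and wild type. The elongase genes Elovl6 and Elovl7, which rose, had log2 fold changes of 2.05 ± 0.36 and 4.29 ± 0.47 in knockout and 1.98 ± 0.41 and 4.24 ± 0.54 in wild type, the opposite sign to Elovl3. Hsd3b7, an enzyme of bile acid synthesis, fell by 0.47 ± 0.08 in knockout and by 0.45 ± 0.09 in wild type, but only 4.0% of its 75-base windows are found in no other gene, so its counts are uncertain. Selenbp1, from which Selenbp2 cannot be cleanly separated by sequence, stood at 195.4 to 232.7 CPM in knockout livers on high-fat diet and at 127.3 to 160.7 CPM in knockout on chow, without the outlying libraries of Selenbp2.

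Markers of other liver cells were set against diet too, where 33.6% of all genes were called in knockout and 29.4% in wild type. Of the macrophage list, 5 of 12 rose in knockout and 9 of 12 in wild type, and the summed level was 406.3 to 762.7 CPM in knockout on high-fat diet, 419.2 to 775.3 CPM in wild-type livers on high-fat diet, 310.4 to 362.0 CPM in knockout on chow and 168.9 to 333.3 CPM in wild type on chow. High-fat knockout 1 was the highest of its group for 12 of 12 macrophage markers. Of the stellate cell list, 8 of 10 rose in knockout and 9 of 10 in wild type, with Col3a1 at log2 fold changes of 2.94 ± 0.20 and 3.57 ± 0.24. Stellate markers summed to 417.7 to 539.7 CPM in knockout and 420.9 to 701.0 CPM in wild-type livers on high-fat diet, and to 190.0 to 309.6 CPM in knockout and 193.8 to 233.7 CPM in wild type on chow. Of the endothelial list, 0 rose and 3 fell (Kdr, Stab1 and Stab2) in knockout and 5 rose (Cdh5, Eng, Lyve1, Oit3 and Pecam1) and 0 fell in wild type, the knockout count being near the share of all genes. Endothelial sums were 218.6 to 281.3 CPM in knockout and 252.8 to 330.9 CPM in wild-type livers on high-fat diet, and 272.3 to 318.5 CPM in knockout and 204.7 to 254.6 CPM in wild type on chow. Of the 15 hepatocyte markers, 8 fell in knockout and 10 in wild type, with Apoa1 at -0.62 ± 0.09 and -0.67 ± 0.10. Hepatocyte sums were 86298.8 to 109314.9 CPM in knockout and 90057.2 to 109590.0 CPM in wild-type livers on high-fat diet, and 118600.8 to 127703.4 CPM in knockout and 115443.9 to 124827.5 CPM in wild type on chow. No marker of any list was at 0 in all libraries, and their part in the differences of the members was not tested.

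Clock genes were set against the diets too, since Elovl3 is known to follow the liver clock. In knockout 4 of 11 rose (Cry1, Dbp, Per2 and Per3) and 3 fell (Arntl, Clock and Nr1d1), and in wild type 3 rose (Cry1, Per2 and Per3) and 3 fell (Clock, Nr1d1 and Tef), beside the same 33.6% and 29.4% of all genes called. Nr1d1, a repressor of the clock, averaged 47.7 ± 13.8 CPM in knockout on high-fat diet (SD, n = 5) and 137.0 ± 3.96 CPM in knockout on chow (SD, n = 4). In wild type Nr1d1 averaged 48.7 ± 10.1 CPM on high-fat diet (SD, n = 4) and 136.7 ± 39.6 CPM on chow (SD, n = 3). Per2 had log2 fold changes of 0.97 ± 0.12 in knockout and 0.52 ± 0.14 in wild type. The part of the clock genes in the members' differences was not tested.

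Within groups the members did not all vary together. After each group's mean was subtracted, the log2 levels of Mup14 and Mup15 had a Pearson correlation of 0.95 over 16 libraries, and 0.92 over 15 without high-fat knockout 1. Mup3 and Mup21 had 0.93 and 0.87. Mup20 and Selenbp2, the members with positive fitted diet changes in knockout, had 0.86 and 0.79. Mup3 and Mup20 had 0.36 and -0.07, and Mup20 and Elovl3 had 0.03 and -0.29. These are descriptions over libraries that share a depth and a scaling each, and near-identical copies share reads.

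Outside the Mup family, the genes most like the mean of the members' scaled log2 levels, by Pearson correlation, over the 16 libraries were Ces3b (r = 0.97), Capn8 (0.96), Cyp7b1 (0.95), C6 (0.94) and the gene model AC154612.1 (0.92). Ces3b encodes a liver carboxylesterase, Capn8 a calpain protease, Cyp7b1 an oxysterol hydroxylase and C6 a complement component. Capn8 and AC154612.1 were near the floor, at no more than 1.87 and 1.22 CPM in any library. Ces3b stood at 255.8 CPM in high-fat knockout 1 and at 60.1 to 106.9 CPM in the other 4, and at 279.7 CPM in chow wild type 2, against 168.0 and 168.9 CPM in the other pair. The genes least like the members were Mvp (r = -0.95), Atp6v1a (-0.93) and Mgst3 (-0.92), which encode the major vault protein, a proton pump subunit and a microsomal glutathione transferase. After the group mean was subtracted the most alike were Ces3b (0.96, and 0.90 without high-fat knockout 1), Capn8 (0.96 and 0.92), Susd4 (0.96 and 0.92), Serpina1e (0.95 and 0.87) and Cyp4a12b (0.94 and 0.86). Serpina1e, an antitrypsin gene from a family of close copies whose counts are therefore uncertain, stood at 1421.3 CPM in high-fat knockout 1 and at 10.1 to 60.9 CPM in the other 4, whereas knockout livers on chow held 1322.0 to 1979.0 CPM.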

How the data were processed

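RNA of mouse liver in 16 libraries was sequenced after ribosomal RNA depletion and aligned with TopHat2, and abundances were computed with Cuffdiff, per the labels' protocols and the submitters' processing notes, which name the mm10 build. The labels speak of a small RNA library kit and of both 45 cycles and 75-base reads, and this was not resolved. The deposited table holds estimated counts per gene that need not be whole numbers, although its name speaks of FPKM. They sum to different totals per library, so they were treated as unscaled counts and rounded. Every value column was matched to a sample by its labels.

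Genes were kept with edgeR 4.0.16's expression filter, which left 16830 of 23258, and scaled by the trimmed mean of M values (TMM). edgeR's quasi-likelihood test was fitted with 1 mean per group over all 16 libraries (12 residual degrees of freedom) in R 4.3.3, with p adjusted by Benjamini-Hochberg over these genes and a threshold of 0.05. SEs of fold changes were worked back from the test, as the absolute log2 fold change over the square root of its F statistic. They are rough where counts are very low, as for Hsd3b5 on high-fat diet. The fit was also run on simulated data. Those held no outlying library and no reads shared between copies, so nothing about the members is read from that run. CPM use the TMM-scaled totals, and log2 CPM for correlations have a prior count of 2. Alternatives were other scalings and filters, DESeq2 1.42.0, limma 3.58.1 voom, fits of only the groups compared, leaving out each library, and summing near-identical Mup genes. Promoters came from RefSeq (GRCm38.p6).

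The members, gene lists and tests were chosen with earlier results of these data known. Named genes are all members, for each list the 2 rising and 2 falling genes with the smallest p in wild type, any growth hormone axis gene, and the genes most and least like the members; others were picked after their values were seen. Replicate numbers follow deposit order and pair nothing.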

Additional observations from a re-analysis of the deposited data

Results flagged for a closer look

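In knockout livers on high-fat diet the highest of 5 libraries, high-fat knockout 1, lay far from the rest for 7 of the 9 members. The gap to the next library was set against the whole range of the group, with a limit of 0.710 for 5 samples. Of 27 groups of 4 or 5 libraries looked at, 7 exceeded their limit, all from this library, and chance exceeds it in about 5% of groups. The members share this library and were chosen with its levels known, so the 7 describe the choice, and nothing is read from them against that rate.

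High-fat knockout 1 held 74.0 CPM of Hsd3b5, where the gap was 0.993 of the range. It held 1324.9 CPM of Mup14 (0.949 of the range), 576.3 CPM of Mup15 (0.935) and 114 CPM of Mup12 (0.893). It held 216.7 CPM of Selenbp2 (0.851), 149 CPM of Mup21 (0.736) and 3477.1 CPM of Mup3 (0.724). Mup20 and Elovl3, for which it was also the highest of 5, did not reach the limit.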

How the results depend on the processing

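With each library left out in turn, edgeR called 0 members in either knockout comparison and in their difference. DESeq2 called 1 on high-fat diet, Hsd3b5, with an adjusted p of 0.0162. With both high-fat knockout 1 and chow wild type 3 left out, knockout differences on high-fat diet were -0.10 for Mup3, -0.21 for Mup21 and -0.23 for Elovl3, and the difference between diets was -0.04 for Mup3, each of the opposite sign to the full set. With 1 library left out, values on high-fat diet ran between -0.10 and 0.47 for Mup3, 0.00 and 0.49 for Mup20, -0.21 and 0.86 for Mup21, and -0.23 and 0.49 for Elovl3. On chow they ran between -1.06 and 0.28 for Hsd3b5, -0.57 and 0.58 for Mup12, -0.63 and 0.30 for Mup14, -0.84 and 0.64 for Mup15, -0.23 and 0.25 for Mup21, -0.14 and 0.08 for Mup3, and -2.42 and -0.07 for Selenbp2 (the last without chow wild type 2). The difference ran between 1.71 and 4.06 for Selenbp2, -0.38 and 0.33 for Elovl3, -0.14 and 0.93 for Mup21, and -0.06 and 0.50 for Mup3.

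Diet calls of the other Mup genes in knockout were 8 with voom and 0 to 11 with 1 library left out. They were 11 with high-fat knockout 1 and chow wild type 3 left out together. Chow wild type 2, the other library that stood apart, was kept in that fit. In wild type they were 2 with no filter, 7 with DESeq2, 7 with voom, 12 with only the groups compared, 11 without both libraries, 2 with near-identical genes summed, and 0 to 11 with 1 left out. Male-biased calls in knockout were 8 with DESeq2, 9 without both libraries and 3 to 9 with 1 left out, and in wild type 5 to 10. Female-biased calls in knockout against wild type on chow were 0 to 1. Summing leaves fewer genes. In fits of all 4 groups the estimate of the spread is shared, so leaving out a library bears on every comparison. Otherwise the cause of these changes was not tested. Fits of only the groups compared give no difference between diets. No paired analysis was possible because the labels carry no replicate numbers shared between groups. Low counts of Hsd3b5 on high-fat diet limit its fold change.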
